A study of Mus musculus with 36 samples.

Results

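Mouse motor neurons grown from embryonic stem cells were compared after 3 days in medium conditioned by astrocytes over-expressing wild-type SOD1 (wtSOD1) and after 3 days in medium of non-transgenic (NTg) astrocytes. The comparison takes the 6 wtSOD1 and the 6 NTg libraries labelled day 3, which are 12 of the 36 RNA sequencing libraries of the study. The remaining libraries are the same media on day 1 and medium of astrocytes with the G93A mutant SOD1 (mSOD1) on both days, with 6 libraries per medium and day. SOD1, a cytosolic antioxidant enzyme, carries inherited mutations in some families with amyotrophic lateral sclerosis, and wtSOD1 medium stands for over-expression of the enzyme in astrocytes without the mutation. All neurons came from the Hlxb9-GFP1Tmj strain, in which the promoter of HB9 (Mnx1) drives eGFP, or eGFP and CD2, and were collected by CD2 on a magnetic column. Mice over-expressing wtSOD1 had been mated with NTg mice, and the astrocytes came from the spinal cord or the cortex of newborn pups. The sources used here do not give the tissue of origin or the number of medium preparations behind each library. The astrocyte cultures were 95% GFAP-positive and 5% CD11b-positive before the microglia were shaken off. All 3 media had glucose at 4.5 mg/ml, with CNTF at 10 ng/ml, BDNF at 1 ng/ml and GDNF at 0.5 ng/ml as trophic factors. The labels do not say that the libraries of a group came from separate cultures, so p-values measure the spread between libraries, which may be technical.

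Cells hold their sterol and fatty acid content through a pair of linked systems. The liver X receptors (LXR), nuclear receptors that bind oxidised cholesterol, switch on the cholesterol exporters Abca1 and Abcg1 and the gene Srebf1, and the protein made from Srebf1, SREBP1, drives fatty acid synthesis and desaturation. The related factor SREBP2 drives cholesterol synthesis when sterol is low, and neurons in culture take up part of their sterol from lipoproteins that astrocytes release.

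Day 3 libraries held 11.6 to 42.2 M reads assigned to genes in NTg medium and 11.6 to 23.1 M in wtSOD1 medium. In wtSOD1 replicates 3 and 4 the 10 most counted genes held 4.17% and 5.82% of reads, against 2.69% to 3.31% in the other 10 libraries. Chat, which makes acetylcholine, ran from 63.4 to 102 counts per M reads (CPM, on library sizes scaled by TMM) in NTg medium and from 56.0 to 92.2 CPM in wtSOD1 medium. Sod1 itself ran from 36.4 to 55.6 CPM and from 40.4 to 44.7 CPM, a log2 difference of -0.10 ± 0.08 (estimate ± SE, adjusted p = 0.999). The astrocyte gene Gfap stood at 0.193 to 3.47 CPM across both media and the microglial gene Cx3cr1 at a median of 0 CPM in each. Some other genes of these marker lists were higher. Slc1a3, a glutamate carrier of astrocytes, had medians of 193 and 203 CPM in NTg and wtSOD1 medium. The microglial receptor P2ry12 had medians of 11.2 and 12.5 CPM. Csf1r (0.236 and 0.322 CPM) and Itgam (0.578 and 0.657 CPM) of the microglial list stayed low. The proliferation marker Mki67 ran from 226 to 342 CPM in NTg and from 235 to 366 CPM in wtSOD1 medium, so RNA of dividing cells stood beside that of the labelled motor neurons. In bulk samples fewer cells of a type and less RNA per cell cannot be told apart.

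After 3 days in wtSOD1 medium the libraries held less RNA of the sterol exporters Abca1 and Abcg1 and of 5 of 16 fatty acid synthesis genes. They held more RNA of 6 genes of mixed function. Of 15204 genes tested with edgeR's quasi-likelihood test, 15 passed an adjusted p of 0.05 (0.0987% of genes tested), 9 of them lower (0.0592%) and 6 higher (0.0395%). The 9 that fell were the exporters Abcg1 and Abca1, the regulator Srebf1, the lipid enzymes Scd1, Scd2, Fasn and Acsl3, the ubiquitin ligase Rnf145 and the amine-making enzyme Ddc. The 6 that rose were the carriers Slc16a6, Slc16a9 and Slc43a2, the arrestin-like protein Arrdc3, the glycolipid enzyme B3gnt5 and the sulfatase Arsg. Among the 15 only Abcg1 changed by more than 2-fold, and the median log2 difference of all genes tested was -0.0024. All 15 moved the same way in 6 of 6 same-numbered pairs of libraries. The groups did not overlap for 14 of the 15, against 76 of all 15204 genes (0.5%). The 15 genes were chosen on these same libraries, so both counts are descriptions and not a further test. Unadjusted, 392 genes had p below 0.05. Replicate numbers are experiment numbers in the labels, and same-numbered libraries were taken as pairs. With the experiment as a block, 8 genes rose and 12 fell in all 36 libraries (0.0526% and 0.0789%), and 254 rose and 243 fell among 14750 genes (1.72% and 1.65%) when the 12 libraries were fitted alone. Without experiment 1, 1 gene rose and 6 fell, and the same counts were left without wtSOD1 replicates 3 and 4.

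**Figure D1:**
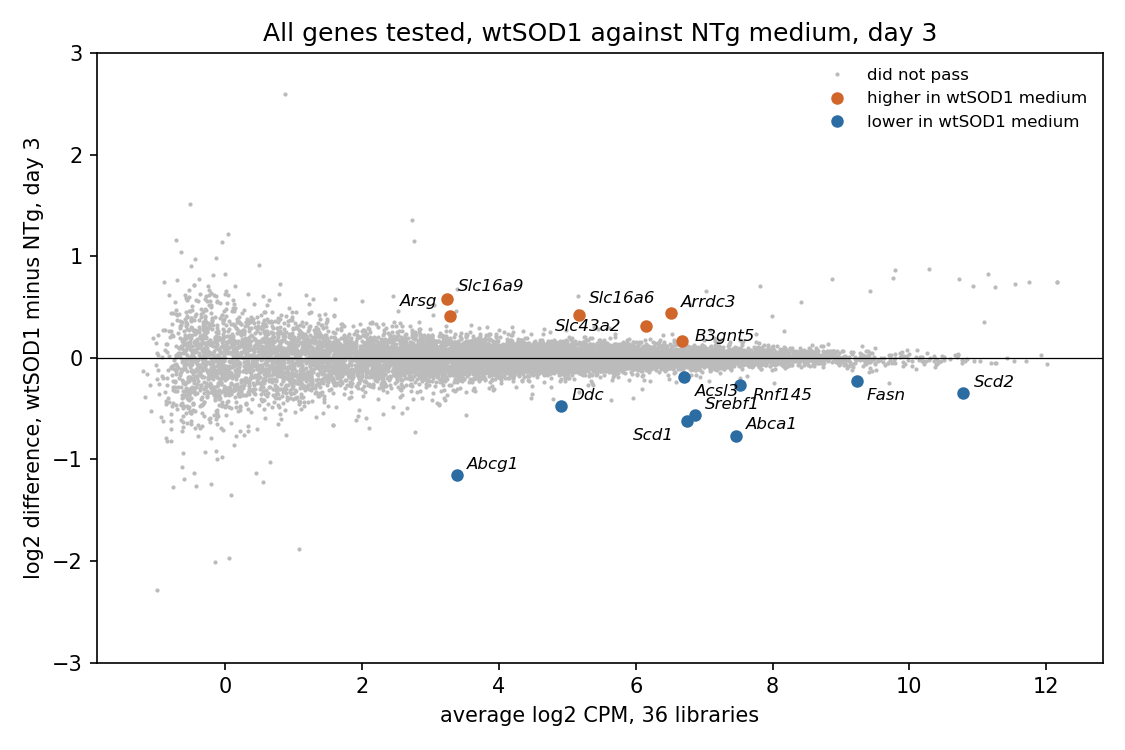
Log2 difference between wtSOD1 and NTg medium on day 3 (vertical axis) against the average log2 CPM over 36 libraries (horizontal axis) for the 15204 genes tested. Blue points are the 9 genes that fell, orange points the 6 that rose and grey points all others, and Abcg1 lies lowest of the named genes at -1.15.

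The cholesterol exporters changed by the largest amounts. Abcg1 (gene 11307), which passes cholesterol to lipoprotein particles, stood at 16.9, 17.5, 16.5, 16.4, 17.5 and 17.5 CPM in NTg replicates 1 to 6 and at 7.68, 8.44, 6.85, 8.17, 7.16 and 7.45 CPM in wtSOD1 replicates 1 to 6. The highest wtSOD1 library lay below the lowest NTg library by a wide margin, and the wtSOD1 mean was 44.7% of the NTg mean (log2 -1.15 ± 0.10, n = 6 per group, edgeR adjusted p = 1.95e-10). Abca1 (11303), which loads cholesterol and phospholipid onto apolipoproteins, stood at 241, 306, 265, 287, 255 and 262 CPM in NTg medium and at 148, 169, 150, 164, 153 and 165 CPM in wtSOD1 medium. Again no libraries overlapped, and the wtSOD1 mean was 58.8% of the NTg mean (-0.77 ± 0.09, 3.34e-06). Rnf145 (74315), a sterol-responsive ubiquitin ligase of the endoplasmic reticulum, had an NTg range of 197 to 220 CPM and a wtSOD1 range of 167 to 187 CPM (-0.27 ± 0.04, 2.25e-05). Its groups were separate as well, with wtSOD1 replicate 3 the highest of its group.

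The regulator of fatty acid synthesis and a pair of desaturases fell as well. Srebf1 (20787), the gene of SREBP1, ran from 183 to 223 CPM (median 201) in NTg medium and from 119 to 147 CPM (median 138) in wtSOD1 medium (-0.57 ± 0.07, 3.34e-06). Scd1 (20249), which puts a double bond into saturated fatty acids, had 167 to 208 CPM (median 195) against 105 to 142 CPM (median 128) (-0.62 ± 0.07, 9.59e-07). Scd2 (20250), the main desaturase of brain, had 2370 to 2650 CPM (median 2601) against 1822 to 2091 CPM (median 2048) (-0.35 ± 0.04, 1.43e-06). In all 3 genes the groups were apart, and NTg and wtSOD1 replicate 1 held the lowest Scd1 and Scd2 of their groups. Scd4, another desaturase of the cluster, was named after its values were seen. It averaged 72.8 ± 6.3 CPM in NTg medium and 54.5 ± 2.9 CPM in wtSOD1 medium (mean ± SD, n = 6). It did not pass (-0.42 ± 0.09, adjusted p = 0.0662, with the block in 12 libraries 2.04e-07, range over alternatives 7.71e-12 to 0.709). The Scd genes are close paralogs, and the sources used here do not state how reads shared between them were counted.

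Smaller falls came from fatty acid synthase and an activating enzyme. Fasn (14104), which builds palmitate, ran from 604 to 719 CPM (median 646) in NTg medium and from 499 to 592 CPM (median 558) in wtSOD1 medium (-0.23 ± 0.05, adjusted p = 0.0242). Acsl3 (74205), which couples fatty acids to coenzyme A, ran from 116 to 125 CPM (median 118) and from 101 to 108 CPM (median 104) (-0.19 ± 0.04, 0.0313). Neither pair of ranges overlapped, but both calls were near the threshold: Fasn failed in 15 and Acsl3 in 17 of the 18 fits without 1 library or 1 experiment. Adjusted p over all alternatives ran from 2.75e-22 to 0.16 for Fasn and from 2.47e-06 to 0.266 for Acsl3. Ddc (13195), the last enzyme of dopamine and serotonin synthesis and no lipid gene, had 33.2 to 42.4 CPM (median 38.2) against 24.4 to 29.7 CPM (median 26.9) (-0.48 ± 0.09, 0.00554). Its call failed without experiment 1 (0.0564, range over alternatives 1.55e-10 to 0.146).

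**Figure D2:**
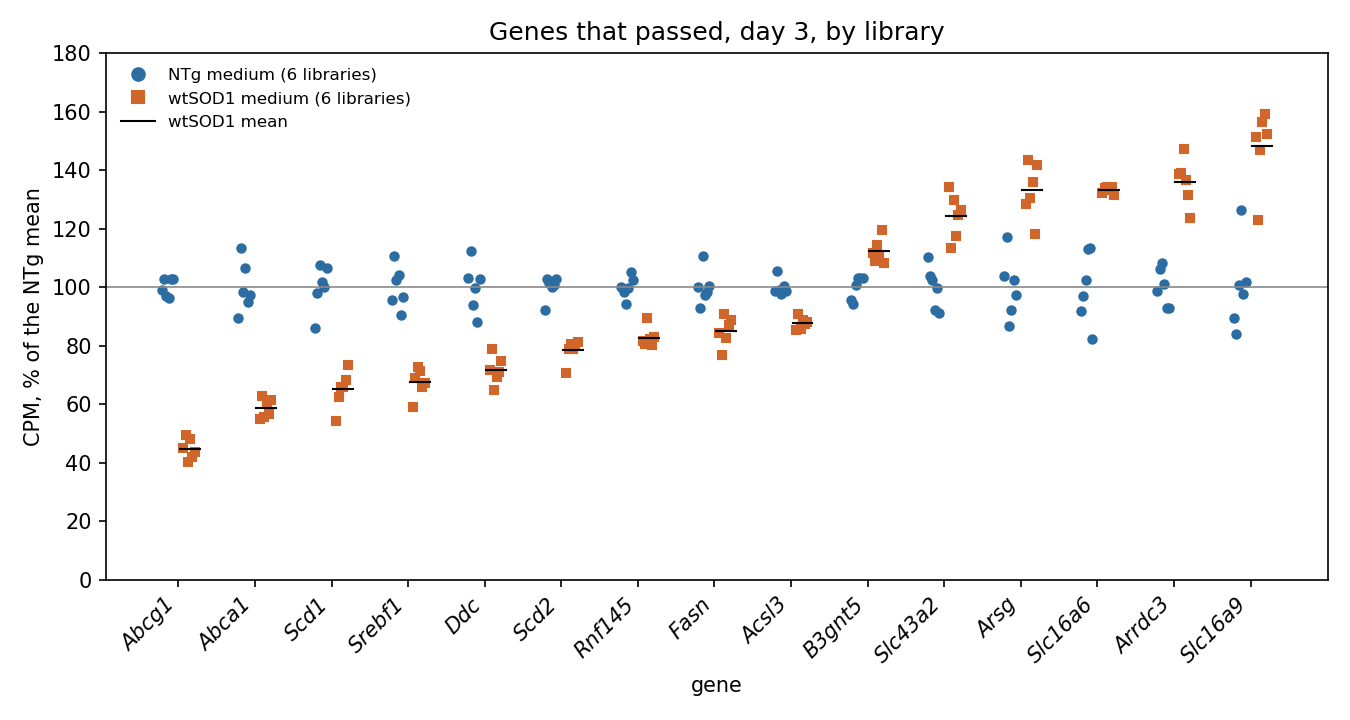
CPM of the 15 genes that passed in each day 3 library, as a percentage of the NTg mean of the gene (vertical axis, from 0), with genes on the horizontal axis. Blue circles are the 6 NTg libraries, orange squares the 6 wtSOD1 libraries and black bars the wtSOD1 means, which run from 44.7% for Abcg1 to 148% for Slc16a9, and Slc16a9 is the gene whose groups overlap.

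The promoters of the genes that fell were searched for a direct repeat to which LXR binds with its partner RXR, since 4 of them stand in a list of LXR genes. Windows of 250 bases before to 50 bases after each start site came from RefSeq (GRCm38.p6, a different build from the mm9 of the study's processing). Of the 9 genes that fell, 6 had entries, and Abcg1, Scd1 and Scd2 had none. The motif, chosen with the results in view, was the half-site GGTNA, any 5 bases and GGTNA again, on either strand. It was present in Abca1, Srebf1, Fasn and Acsl3, 4 of 11 promoters (36.4%), against 236 of all 32851 promoters (0.718%). None of the 9 promoters of genes that rose held it, where Slc16a6 had no entry. The matches lay on the strand opposite to the gene and read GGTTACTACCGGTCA in Abca1 and Fasn, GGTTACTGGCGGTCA in Srebf1 and GGTTACTATGGGTCA in Acsl3. Each window follows on the strand of its gene, to show where the repeat lies, with the match in capitals. A match is a description of letters, not a site or a cause.
Abca1 (chr4:53159846-53160145, - strand): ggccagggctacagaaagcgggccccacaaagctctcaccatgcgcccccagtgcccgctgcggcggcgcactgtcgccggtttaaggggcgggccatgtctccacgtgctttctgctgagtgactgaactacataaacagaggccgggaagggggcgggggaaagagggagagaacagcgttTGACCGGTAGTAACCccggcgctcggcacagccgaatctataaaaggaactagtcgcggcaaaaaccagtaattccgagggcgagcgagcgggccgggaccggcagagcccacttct
Srebf1 (chr11:60210422-60210721, - strand): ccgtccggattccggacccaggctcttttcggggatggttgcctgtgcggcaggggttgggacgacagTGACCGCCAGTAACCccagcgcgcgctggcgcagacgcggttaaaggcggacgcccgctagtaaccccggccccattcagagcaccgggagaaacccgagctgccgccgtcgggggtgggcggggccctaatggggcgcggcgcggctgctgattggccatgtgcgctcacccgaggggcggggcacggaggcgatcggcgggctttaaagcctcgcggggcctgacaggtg
Fasn (chr11:120824498-120824797, - strand): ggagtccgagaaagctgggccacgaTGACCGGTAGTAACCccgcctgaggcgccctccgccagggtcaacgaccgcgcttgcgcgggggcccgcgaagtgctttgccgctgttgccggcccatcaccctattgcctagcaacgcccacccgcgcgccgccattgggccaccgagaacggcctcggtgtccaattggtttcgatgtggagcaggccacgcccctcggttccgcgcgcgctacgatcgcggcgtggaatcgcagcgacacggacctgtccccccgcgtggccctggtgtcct
Acsl3 (chr1:78657575-78657874, + strand): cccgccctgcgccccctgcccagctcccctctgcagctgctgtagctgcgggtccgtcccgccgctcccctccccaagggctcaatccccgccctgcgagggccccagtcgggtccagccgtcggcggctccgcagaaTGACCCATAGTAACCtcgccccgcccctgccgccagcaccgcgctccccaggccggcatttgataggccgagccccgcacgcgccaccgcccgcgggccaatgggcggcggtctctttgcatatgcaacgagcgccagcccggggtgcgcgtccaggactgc

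A SREBP element, TCACNCCAC on either strand, was in 0 of the 11 promoters of genes that fell and in B3gnt5 alone among those that rose, against 1.24% of all promoters. It was also in 0 of 19 promoters of the cholesterol list, whose genes SREBP2 is known to drive. The amino acid response element TGATGNAA (3.97% of all promoters) and the interferon element of GAAA, any 2 bases and GAAA (3.44%) were in none of either set.

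Of 13 LXR genes tested, 4 fell (Abcg1, Abca1, Srebf1 and Scd1) and 9 did not pass, with a median log2 difference of -0.17. Lpcat3 (14792), which adds polyunsaturated fatty acids to phospholipids, had the next lowest p. It ran from 48.5 to 56.8 CPM in NTg medium and from 42.2 to 45.4 CPM in wtSOD1 medium, with no overlap (-0.27 ± 0.06, adjusted p = 0.0946). It passed with the experiment block in 36 libraries (adjusted p = 0.0373, range over alternatives 3.71e-06 to 0.906), and Emg1 overlaps it on the other strand. The other 8 members each had an adjusted p of 0.999, with estimates from -0.44 ± 0.36 for the receptor gene Nr1h3 to 0.05 ± 0.10 for the transporter Abcg4. Among them, named after their values were seen, the second receptor gene Nr1h2 stood at 0.01 ± 0.08, Mylip, which marks the LDL receptor for degradation, at -0.06 ± 0.13, and Apoe at -0.17 ± 0.38. Apoe libraries ranged from 7.25 to 13.5 CPM in NTg medium and from 4.83 to 11.3 CPM in wtSOD1 medium. Of 16 genes of fatty acid synthesis, 5 fell (Srebf1, Scd1, Scd2, Fasn and Acsl3) and 11 did not pass, with a median of -0.10. Srebf1 and Scd1 stand in both lists, whose members were chosen with earlier results of these data known. Of all 15204 genes tested in the same fit, 9 fell (0.0592%). Fads2, which desaturates polyunsaturated fatty acids, had 132 to 149 CPM against 117 to 128 CPM without overlap and did not pass (-0.19 ± 0.05, 0.266, with the block in 12 libraries 8.7e-07, range over alternatives up to 1). In the 12 libraries with the experiment block, 5 LXR genes and 8 fatty acid genes were lower and none higher. Of all genes in that fit 1.65% were lower and 1.72% higher.

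Cholesterol synthesis genes did not fall with them. Of 24 tested, 0 passed in edgeR or DESeq2 without a block and 2 had an unadjusted p below 0.05. Above 0 were 19 of the 24 estimates, with a median of 0.04, where 51.4% of all genes tested lay below 0. Idi1, which makes an isoprene isomer, ran from 61.9 to 69.6 CPM in NTg medium and from 68.3 to 80.0 CPM in wtSOD1 medium, higher in 6 of 6 pairs with overlapping groups (0.16 ± 0.05, adjusted p = 0.999). Lss, which closes the sterol ring, stood at 0.15 ± 0.07, the demethylating oxidase Sc4mol at 0.13 ± 0.07 and the prenyl synthase Fdps at 0.16 ± 0.09 (0.999 each). These 4 were the members that passed with the block in 12 libraries (Idi1 0.000647, Lss 0.0114, Sc4mol 0.0075, Fdps 0.0486), a fit in which 254 genes rose and 243 fell and in which DESeq2 gave 86 and 74. Over all alternatives their adjusted p reached 1. Insig1, which holds SREBP back, stood at 0.06 ± 0.05, and Sqle, which oxidises squalene, at 0.03 ± 0.04 (0.999 each).

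**Figure D3:**
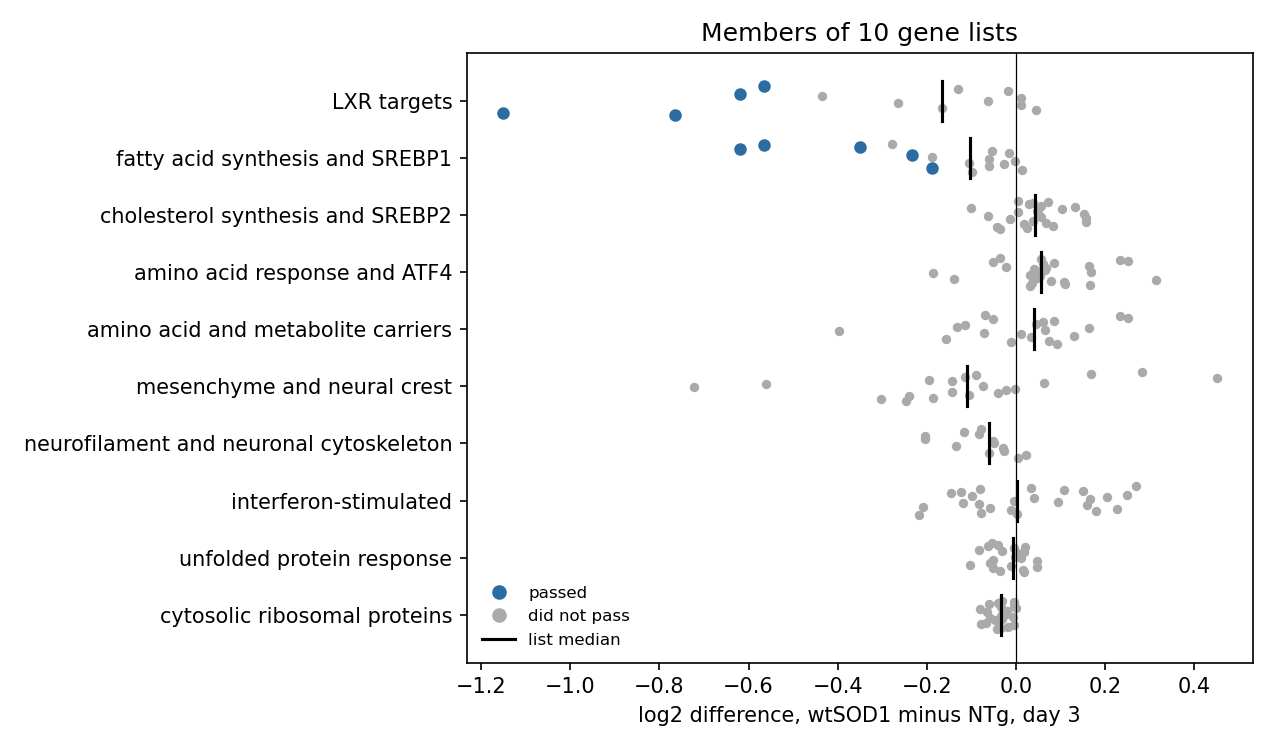
Log2 difference between wtSOD1 and NTg medium on day 3 for the tested members of 10 gene lists, with lists on the vertical axis. Blue points passed, grey points did not, and black bars are list medians, from -0.17 for LXR genes to 0.06 for the amino acid response.

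The genes that rose included 3 membrane carriers, none of them in the list of amino acid and metabolite carriers, where 0 of 20 passed. In that list 2 were higher and 5 lower with the block in 12 libraries (1.72% and 1.65% of all genes). Slc16a6 (104681), of the monocarboxylate carrier family, ran from 22.9 to 31.7 CPM in NTg medium and from 36.7 to 37.4 CPM in wtSOD1 medium (0.42 ± 0.07, adjusted p = 0.000299). The wtSOD1 libraries lay within 1 CPM of each other and all above the NTg libraries. Slc16a9 (66859), of the same family, had 6.71 to 10.1 CPM (median 7.91) against 9.81 to 12.7 CPM (median 12.1) (0.57 ± 0.11, 0.00554). Here wtSOD1 replicate 2 lay below NTg replicate 4, the single overlap among the 15 genes. The call failed without experiment 1 or 5 (range over alternatives 2.57e-06 to 0.0969). Slc43a2 (215113), a carrier of large neutral amino acids, had 52.1 to 62.9 CPM against 64.7 to 76.7 CPM (0.31 ± 0.07, 0.0366), and its call failed in 14 of 18 fits without 1 library or experiment (range over alternatives 4.87e-08 to 0.34).

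The other 3 genes that rose belong to no common pathway. Arrdc3 (105171), which sorts membrane receptors for degradation, ran from 56.6 to 65.9 CPM (median 60.8) in NTg medium and from 75.3 to 89.6 CPM (median 83.8) in wtSOD1 medium (0.44 ± 0.08, adjusted p = 0.00554). Without experiment 1 its adjusted p was 0.0564 (range over alternatives 8.87e-22 to 0.108). B3gnt5 (108105), which starts the lacto-series of glycolipids, had 84.5 to 92.3 CPM against 96.8 to 107 CPM (0.17 ± 0.03, 0.0137). Arsg (74008), a lysosomal sulfatase, had 6.74 to 9.10 CPM against 9.17 to 11.1 CPM (0.41 ± 0.09, 0.0301). None of the 3 had overlapping groups, though Arsg came within 0.1 CPM. Arsg and Slc16a6 overlap on opposite strands, and without known strandedness reads of one may have been counted for the other. The call failed for Arsg in 15 of 18 fits and for B3gnt5 in 7 of 18 (ranges over alternatives 0.00202 to 0.271 and 8.77e-05 to 0.153).

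Genes next in rank did not pass without a block. The amino acid carrier subunit Slc7a5 had 75.5 to 93.4 CPM against 93.2 to 111 CPM, an overlap by a single pair of libraries (0.23 ± 0.06, adjusted p = 0.317). It passed with the block in 36 libraries (0.0354, range over alternatives 1.2e-07 to 1), as did Zdbf2, an imprinted gene, at 158 to 174 CPM against 183 to 206 CPM (0.23 ± 0.06, 0.266, with the block 0.0464, range 6.38e-11 to 1). On the low side Postn, a matrix protein of mesenchyme, passed there (0.0185, range 7.53e-06 to 0.999) at 11.8 to 17.2 CPM against 7.80 to 12.6 CPM (-0.56 ± 0.13, 0.119). So did Crym, named after its values were seen, which binds thyroid hormone (-0.34 ± 0.09, 0.221, with the block 0.0184, range 1.4e-09 to 1). The amino acid transporter Slc6a15 (0.20 ± 0.05, 0.219) and Mir670 (0.61 ± 0.15, 0.127), which lies within its host transcript and cannot be separated from it, did not pass with that block (0.0766 and 0.134). Both passed with the experiment as a block within each day, a fit added after the results were seen that called 57 genes (0.375%), at 0.0157 and 0.0373 (ranges over alternatives 9.23e-05 to 0.883 and 0.00576 to 0.781).

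The wtSOD1 effect on the exporters differed between the days. Abcg1 averaged 7.29 ± 0.73 CPM (mean ± SD, n = 6) in NTg medium and 6.01 ± 1.1 CPM in wtSOD1 medium on day 1, and 17.0 ± 0.53 and 7.63 ± 0.61 CPM on day 3. Abca1 averaged 113 ± 20 and 112 ± 16 CPM on day 1, and 269 ± 23 and 158 ± 9.1 CPM on day 3. On day 1 the wtSOD1 minus NTg estimate was -0.28 ± 0.11 for Abcg1 (edgeR adjusted p = 0.653) and -0.005 ± 0.096 for Abca1 (0.9997), and neither passed. On day 3 the NTg mean of both genes stood far above the wtSOD1 mean. The difference between the 2 days' effects was -0.87 ± 0.14 for Abcg1 (edgeR interaction, adjusted p = 0.00596) and -0.76 ± 0.13 for Abca1 (0.0145). With Idi1 (0.39 ± 0.07, 0.0178) these were the only 3 of 15204 genes (0.0197%) whose wtSOD1 effect differed between days. Without the pair of day 1 libraries that stood apart (NTg replicate 6 and wtSOD1 replicate 4), Idi1 did not pass (0.35, adjusted p = 0.135).

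The cholesterol list moved from one side of 0 to the other between the days. All 24 estimates of the cholesterol list were below 0 on day 1 (median -0.21), where Sqle (-0.26 ± 0.04, 0.00214) and Insig1 (-0.23 ± 0.04, 0.0439) fell. On day 3 the median was 0.04. With the block within each day, 19 genes differed between days (0.125%), and the 9 with a higher effect on day 3 (0.0592%) were all members of the cholesterol list, among them Idi1, Fdps, Sqle, Fdft1, Lss, Nsdhl, Insig1 and Sc4mol. The interaction estimate in that fit was highest for Fdps, at 0.51. Srebf1 (-0.32 ± 0.10), Scd1 (-0.28 ± 0.10), Scd2 (-0.09 ± 0.06) and Fasn (-0.08 ± 0.07) did not pass the test of the difference between days (adjusted p = 1 each). All 15 genes had the same sign on day 1, where Scd2 was the 1 that passed (-0.26 ± 0.04, 0.00214) among 4 genes called (0.0263%).

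The mSOD1 medium of day 3 was compared with wtSOD1 medium directly. The 15 genes were chosen on the same wtSOD1 libraries, so their count here is a description: 10 of the 15 differed between mSOD1 and wtSOD1 medium, against 513 of 15204 genes (3.37%). Abcg1 averaged 17.5 ± 1.3 CPM in mSOD1 medium (mSOD1 minus wtSOD1 1.19 ± 0.10, edgeR adjusted p = 1.02e-10) and Abca1 305 ± 21 CPM (0.95 ± 0.09, 4.62e-08). Rnf145 (0.30 ± 0.04, 2.3e-06), Scd2 (0.23 ± 0.04, 0.000577) and Srebf1 (0.30 ± 0.07, 0.00995) were also higher in mSOD1 medium. Slc16a6 (-0.34 ± 0.07, 0.00169), Slc16a9 (-0.47 ± 0.11, 0.00678), B3gnt5 (-0.15 ± 0.03, 0.0073), Arrdc3 (-0.30 ± 0.08, 0.0322) and Arsg (-0.31 ± 0.09, 0.038) were lower. Scd1 did not pass there (0.17 ± 0.07, 0.178).

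Against the same NTg libraries, mSOD1 medium gave -0.45 ± 0.07 for Scd1 (adjusted p = 0.000313) and -0.26 ± 0.07 for Srebf1 (0.0344), and the other 13 of the 15 genes did not pass, where 447 of all genes did (2.94%). Abcg1 stood at 0.04 ± 0.09 (0.877) and Abca1 at 0.18 ± 0.09 (0.282) there, beside -1.15 and -0.77 for wtSOD1 medium. Because both contrasts share their controls, these values are given side by side only. The cytokine receptor Osmr stood at 0.53 ± 0.07 (2.72e-06) for mSOD1 and at 0.01 ± 0.07 (0.999) for wtSOD1 medium, and the interferon factor Irf9 at 0.35 ± 0.07 (0.00706) and 0.04 ± 0.07 (0.999), beside 0.39 ± 0.07 (0.0229) for wtSOD1 medium on day 1. Both were higher in mSOD1 than in wtSOD1 medium directly (Osmr 0.53 ± 0.07, 1.99e-06, and Irf9 0.31 ± 0.07, 0.0118).

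**Figure D4:**
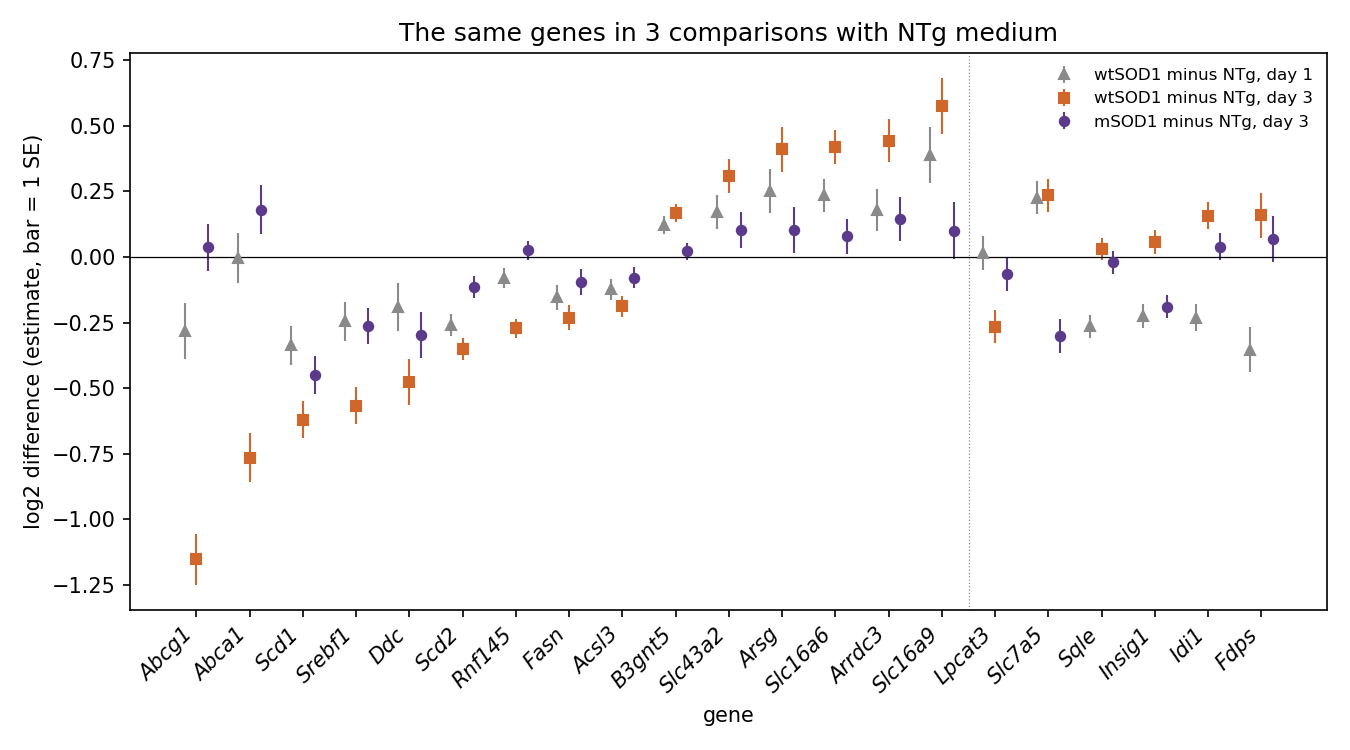
Log2 differences from NTg medium (estimate, bars 1 SE) for wtSOD1 on day 1 (grey triangles), wtSOD1 on day 3 (orange squares) and mSOD1 on day 3 (purple circles, sharing the day 3 NTg libraries). The 15 genes that passed are left of the dotted line and 6 others right of it, and Abcg1 and Abca1 lie at -1.15 and -0.77 for wtSOD1 on day 3 and near or above 0 for mSOD1.

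Of the 41 gene lists, 39, the cholesterol list among them, held no gene that passed in edgeR without a block. Of their 839 tested entries, 30 had an unadjusted p below 0.05 and DESeq2 called 2. Among all 15204 genes, 392 had such a p, and DESeq2 called 6 higher and 13 lower. Estimates lay below 0 for 51.4% of all genes tested. In the amino acid response driven by ATF4, 0 of 27 passed and 22 estimates were above 0 (median 0.06): Slc7a5 as above, its partner Slc3a2 at 0.16 ± 0.05, the asparagine synthetase Asns at 0.17 ± 0.06 and Chac1, which breaks down glutathione, at 0.31 ± 0.17 (adjusted p = 0.999 for the last 3). Slc7a5, Slc3a2 and Asns passed with the block in 12 libraries (1.2e-07, 9.03e-05 and 0.000105, each up to 1 over the alternatives). Mthfd2 of mitochondrial folate metabolism stood at 0.05 ± 0.06. In mSOD1 medium these genes were lower than in wtSOD1 medium, with log2 differences of -0.54 ± 0.06 for Slc7a5 (adjusted p = 8.14e-07), -0.33 ± 0.06 for Asns (0.000669) and -0.40 ± 0.06 for Mthfd2 (0.0002).

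In edgeR without a block no gene of the inflammatory lists passed in wtSOD1 medium on day 3, while DESeq2 called 1 of the 23 NF-kB genes. Irf9 of the interferon list was higher in wtSOD1 medium on day 1 (0.39 ± 0.07, edgeR adjusted p = 0.0229). Of 25 interferon-stimulated genes 0 passed, with a median of 0.00, and of 23 NF-kB genes 0 passed, with a median of -0.10. The adhesion molecule Vcam1 had 77.1 to 92.5 CPM in NTg medium against 56.5 to 75.9 CPM in wtSOD1 medium without overlap (-0.39 ± 0.09, adjusted p = 0.127). It passed with the block within each day (0.029, range over alternatives 8.91e-14 to 0.999). Bcl3, an NF-kB partner, averaged 7.22 ± 0.92 CPM against 5.5 ± 0.5 CPM (mean ± SD, n = 6) with no overlap (-0.42 ± 0.13, 0.892, with the block in 12 libraries 0.0108, range over alternatives up to 1). Of 21 genes of gp130 signalling, through which CNTF acts, 0 passed. In the 12 libraries with the block, 1 of 23 interferon genes was higher (1.72% of all genes), and 2 of 20 NF-kB genes and 4 of 20 gp130 genes were lower (1.65% of all genes).

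No motor neuron gene passed, while their summed level was lower in each pair. The 10 motor neuron markers summed to 3024 to 4849 CPM in NTg medium and 2674 to 4672 CPM in wtSOD1 medium, lower in 6 of 6 pairs. Most of this sum came from the filament genes Nefm, Nefl and Prph, with NTg medians of 1884, 1232 and 459 CPM. Their wtSOD1 medians were 1833, 1260 and 418 CPM. Prph was lower in 6 of 6 pairs, Lhx3 in 5, and Mnx1, Isl1 and Chat in 4 each. Of 24 identity genes 0 passed, with a median of -0.08. With the block in 12 libraries 1 was higher and 2 were lower (1.72% and 1.65% of all genes). Without the block Mnx1 stood at -0.12 ± 0.14, Isl1 at -0.05 ± 0.11, Chat at -0.08 ± 0.11 and Lhx3 at -0.39 ± 0.20 (adjusted p = 0.999 each). Of 13 neurofilament and cytoskeleton genes 0 passed, and 11 estimates were below 0 (51.4% of all genes tested). Among them were Prph, a peripheral neurofilament protein (-0.20 ± 0.11), and the synuclein Sncg (-0.20 ± 0.09, adjusted p = 0.999 each). In the 12 libraries with the block 6 of the 13 were lower (1.65% of all genes). The metal-binding Mt2 had 34.8 to 55.6 CPM against 45.6 to 69.7 CPM, higher in 6 of 6 pairs (0.46 ± 0.15, 0.999, with the block in 12 libraries 3.81e-11, range over alternatives 1.63e-13 to 1). No gene passed among 24 of the unfolded protein response, 24 ribosomal proteins or 31 of proliferation, where Mki67 stood at 0.09 ± 0.11 (0.999, with the block in 12 libraries 0.00477, range over alternatives up to 1).

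Markers of other cells were read beside these results. The 7 mesenchyme markers summed to 193 to 255 CPM in NTg medium and 167 to 241 CPM in wtSOD1 medium, lower in 6 of 6 pairs, with Lum at 0.142 to 1.23 CPM. Col1a1 stood at 74.9 to 112 CPM and 63.2 to 99.8 CPM (-0.30 ± 0.17, adjusted p = 0.999). Of 20 mesenchyme and crest genes 0 passed in edgeR without a block, with a median of -0.11, while DESeq2 called 1. With the block in 12 libraries 6 of 19 were lower (1.65% of all genes). There Acta2, smooth muscle actin, had an adjusted p of 9.97e-05 (-0.25 ± 0.12, 0.999 without a block, range over alternatives 3.25e-06 to 1). The 8 oligodendrocyte lineage markers summed to 50.4 to 74.4 CPM and 44.97 to 58.3 CPM, also lower in 6 of 6 pairs, with Sox10 at medians of 0.455 and 0.202 CPM. The 7 astrocyte markers summed to 445 to 622 CPM and 420 to 575 CPM, lower in 2 of 6 pairs. Most of that sum came from Slc1a3 (medians 193 and 203 CPM) and Aldh1l1 (127 and 121 CPM), and Aqp4 stood at 2.73 and 2.40 CPM. The 7 microglial markers summed to 15.6 to 17.9 CPM and 17.1 to 18.6 CPM, lower in 1 of 6. Most of this microglial sum came from 1 gene, P2ry12 (medians 11.2 and 12.5 CPM), and Aif1 stood at 0.284 and 0.372 CPM. The 6 neural progenitor markers summed to more, 1088 to 1258 CPM in NTg medium and 1062 to 1258 CPM in wtSOD1 medium, lower in 3 of 6 pairs. Most of this progenitor sum came from Nes, with medians of 928 and 944 CPM. The part of these cells in the lipid results was not tested.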

How the data were processed

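RNA of 36 libraries, 6 in each of 6 groups of medium and day, was read from the table of counts per gene that the authors deposited. Reads were aligned with TopHat 1.3.3 to mm9 and handled with DESeq, per the submitters' processing notes, while the sources used here do not state the counting program, the annotation or the use of strand. A second table of log2-like variance-stabilised values, made by the authors with an unstated transformation, served only as an alternative with limma 3.58.1. Of 21761 genes listed, 1798 had no read, and 7 rows without a symbol were left out. Genes kept by edgeR's filterByExpr (15204) were scaled by TMM and tested with the quasi-likelihood test of edgeR 4.0.16 in R 4.3.3, over all 36 libraries, which share one estimate of the spread with 30 residual degrees of freedom, without a block. P-values were adjusted by Benjamini-Hochberg across the 15204 genes, and 0.05 was the threshold. CPM use the TMM-scaled library sizes. Log2 CPM with a prior count of 2 served for the directions and correlations of pairs. Log2 differences are those of the quasi-likelihood fit, and each SE is the absolute log2 difference divided by the square root of the F statistic. The 36 libraries held 4.39 to 88.9 M reads, both ends on day 1, and low genes are less precise in the shallow ones.

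Labels give each library an experiment number, read as the pairing. Over 13582 genes the deviations of same-numbered day 3 libraries from their group means correlated from -0.0111 to 0.693 (mean 0.318, 4 of 6 over 0.1), against a mean of -0.063 for different numbers. No 2 libraries of a group agreed within sampling noise. Alternatives were the block, other scaling, filters and tools (DESeq2 1.42.0 among them), and leaving out libraries or experiments. Named genes are those that passed at a mean log2 CPM of 1 or more with one direction in 5 of 6 pairs (at most 15 per direction by size and 5 by p), filled to 10 per direction from the blocked fit and then by unadjusted p, with up to 4 members of each list described and a set of fixed names. The members and the 41 gene lists (907 entries, 903 of them in the file and 868 tested) were chosen with earlier results of these data known. Promoter sequences are from RefSeq (GRCm38.p6).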

Additional observations from a re-analysis of the deposited data

Results flagged for a closer look

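Single libraries lay apart from the other 5 of their group in 8 of 124 groups of 6 libraries, by a gap beyond the 95% critical value of Dixon's test, where chance flags about 1 in 20 groups. Scd2 was lowest in replicate 1 of both media, at 2370 CPM in NTg and 1822 CPM in wtSOD1 medium. Acsl3 was highest in NTg replicate 2 (125 CPM), Rnf145 highest in wtSOD1 replicate 3 (187 CPM) and Slc16a9 lowest in wtSOD1 replicate 2 (9.81 CPM). Among genes that did not pass, Lhx3 was lowest in NTg replicate 5 (1.11 CPM), Gfap highest in NTg replicate 2 (3.47 CPM) and Crym highest in wtSOD1 replicate 2 (56.1 CPM).

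The wtSOD1 effect differed between day 3 and day 1 in edgeR's interaction test for Abcg1 (-0.87 on the log2 scale), Abca1 (-0.76) and Idi1 (0.39).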

How the results depend on the processing

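The 15 genes kept their direction in all 475 values over 32 alternatives, and 391 of these also stayed past the threshold. The alternatives reuse the libraries on which these genes were chosen, so the count of directions is a description. Abca1, Abcg1, Rnf145, Scd1, Scd2, Slc16a6 and Srebf1 passed in all 18 fits without 1 library or 1 experiment. In those fits 1 to 5 genes were higher and 6 to 9 lower, the fewest without experiment 1. Without wtSOD1 replicates 3 and 4 there was 1 higher, and without the 2 day 1 libraries that stood apart 14 were lower. The replicate block in 12 libraries gave 254 higher and 243 lower, DESeq2 with that block 86 and 74, and the block within each day 23 and 34. With the block within each day 19 genes differed between days (3 without a block), and 2367 between mSOD1 and wtSOD1 medium (1419 with the block over both days, 513 without). The cause was not tested. The block changed no call of the 15 genes.

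Of 1479 values of 47 other genes chosen for description, 1376 kept direction and side, 87 became significant and 16 changed sign. Without wtSOD1 replicates 3 and 4, Osmr stood at -0.0069 and Nr1h2 at -0.0064. Leaving out libraries or experiments, Mnx1 ran from -0.1989 to 0.0295, Isl1 from -0.1357 to 0.0291, Chat from -0.1452 to 0.0007, Osmr from -0.0239 to 0.0484 and Nr1h2 from -0.0122 to 0.0314. The alternatives on the block within each day, DESeq2 with a block and the libraries that stood apart were added after the data were seen.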

Other observations

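Other gene groups held members that passed with the experiment as a block in the 12 libraries, a fit of 14750 genes in which 254 were higher (1.72%) and 243 lower (1.65%), and all of the following had an adjusted p of 0.999 in edgeR without the block. Of 18 genes of retinoic acid handling 3 were lower, among them the retinoic acid-binding proteins Crabp2 (-0.45 ± 0.15, adjusted p with the block 0.0102) and Crabp1 (-0.29 ± 0.15, 0.00644). Of 18 Hox genes, which set position along the body axis, 4 were lower, from Hoxb6 (-0.27 ± 0.13, 0.00711) to Hoxb8 (-0.16 ± 0.13, 0.0285). Of 21 collagens and laminins 6 were lower, with Col1a1 lowest in estimate (-0.30 ± 0.17, 3e-05). Of 24 genes of the synaptic vesicle and its release, 4 were higher, among them the active-zone scaffold genes Bsn (0.17 ± 0.12, 0.00162) and Pclo (0.14 ± 0.12, 0.00244) and the release factor Rims2 (0.17 ± 0.11, 0.00372). The BDNF receptor Ntrk2 was higher as well (0.18 ± 0.06, 0.000127). Col1a1 and Ntrk2 also passed with the block within each day (0.029 and 0.0241). These groups were picked for their calls in that fit after the values were seen.

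A set of 17 genes with an average log2 CPM above 7 had estimates above 0.4 and did not pass, and all 17 were highest in wtSOD1 replicate 4. Lars2, a mitochondrial tRNA synthetase named after its values were seen, ran from 381 to 2927 CPM (median 1453) in NTg medium and from 330.2 to 7066 CPM (median 1443) in wtSOD1 medium (0.72, adjusted p = 0.999). The 17 genes were not all separate signals. Filip1l ran from 496 to 3602 CPM and 2610528E23Rik from 506 to 3610 CPM in NTg medium, with wtSOD1 maxima of 9365 and 9373 CPM. In wtSOD1 replicate 4 the 10 most counted genes also held the largest share of reads of the 12 libraries.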
